A study of Manis javanica with 3 samples.

Results

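The genes described here are the 169 homeobox genes of the Malayan pangolin (Manis javanica), followed in liver, salivary glands and tissue labelled small intestine. They were found as every gene whose best match in the NR protein database (the NR entry) carries the word homeobox, and they are 169 of the 24220 genes in the expression tables. Another 3 genes with such an entry (HOXA5, PBX2 and a second gene named ZFHX3) had no row of values and were not analysed here, and no row was matched to CDX2 or NKX2-1. All 3 tissues came from the same wild adult female, which died during rescue and had eaten ants. Each tissue gave 1 RNA-seq library. No difference below therefore has a replicate check or a test, and the intervals cover counting error only.

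Homeobox genes encode transcription factors that hold a homeodomain, the fold that binds DNA. In the embryo they divide the gut tube into regions, and adult organs often keep the combination that set their region. BARX1 and NKX3-2 act in the mesenchyme of the stomach, PDX1 at the border of antrum, duodenum and pancreas, and the CDX genes in the epithelium of the intestine. The HOX genes lie in 4 clusters, in which low paralog numbers mark anterior and high numbers posterior levels of the body.

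Each tissue label was first set against genes that define its cells. Of the symbols listed, 11 of 13 gastric, 12 of 15 enterocyte, 10 of 10 hepatocyte and 7 of 12 salivary ones were matched to a gene. Where several genes matched a symbol, the one with the highest value in any library was taken. In the library labelled small intestine, called the intestine-labelled library below, 11 gastric genes had a median FPKM (fragments scaled for transcript length and for the mapped fragments of the library) of 1073. Among them were the genes of pepsin A, of acidic chitinase and of the acid pump. The 12 enterocyte genes had a median FPKM of 0.0464 there, and 5 of them, LCT and FABP2 included, had no read. Their medians in the salivary and liver libraries, 0 and 0.112, were low too. In the intestine-labelled library 9 of the gastric genes passed an FPKM of 1, all but GIF and LIPF. Of the enterocyte genes 2 did, VIL1 from 618 reads and SLC5A1 from 63. The label is therefore used below only as a name. The gastric genes had medians of 0.941 in the salivary library and 0 in liver. In the liver library 10 hepatocyte genes had a median FPKM of 444, against 0.0112 and 0.185 in the intestine-labelled and salivary libraries. TTR was the exception, with 53.1 in the salivary library against 35.1 in liver. SERPINA1 with 120 in the salivary library and ALB with 89.1 in the intestine-labelled library were also present there, below their liver values of 586 and 434. The salivary library had a median of 55.01 over 7 salivary genes, against 5.71 and 6.05 in the intestine-labelled and liver libraries. That list did not separate the libraries fully, since the median is the value of the keratin KRT5, which had 88.2 in the intestine-labelled library, and 6 of its genes passed an FPKM of 1 there against 5 in the salivary library. AQP5, the water channel of salivary acini, had 2.29, 94.3 and 24.7. Smooth muscle genes also differed, and their 6 members summed to an FPKM of 3169 in the intestine-labelled library, 349.5 in the salivary library and 30.2 in the liver library.

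Homeobox genes were expressed less often than genes at large, as the plot of shares shows. Expression was set at an FPKM above 1. By that rule 48 homeobox genes were expressed in the intestine-labelled library, 28.4% of the 169, where 59.4% of all genes were. In the salivary library the count was 35, or 20.7% against 56.3% of all genes. In the liver library it was 32, or 18.9% against 57.0%. The homeobox genes together took 0.106% of the 10158924 counts of the intestine-labelled library (95% Wilson interval 0.104 to 0.108%), 0.1003% of the 8318686 of the salivary library (0.0982 to 0.102%) and 0.119% of the 14568778 of the liver library (0.117 to 0.121%). By these unscaled totals the highest share stood in the liver library and the lowest in the salivary library. TMM, the scaling used for the folds below, multiplies the totals by 0.851, 1.17 and 1.005 in the same order. With it the intestine-labelled share would pass that of the liver library, so the order depends on the scaling. The expressed homeobox genes were also at low levels, with median FPKM values of 4.10, 3.60 and 4.11 in the intestine-labelled, salivary and liver libraries, where all expressed genes had medians of 7.40, 7.29 and 8.15.

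**Figure D1:**
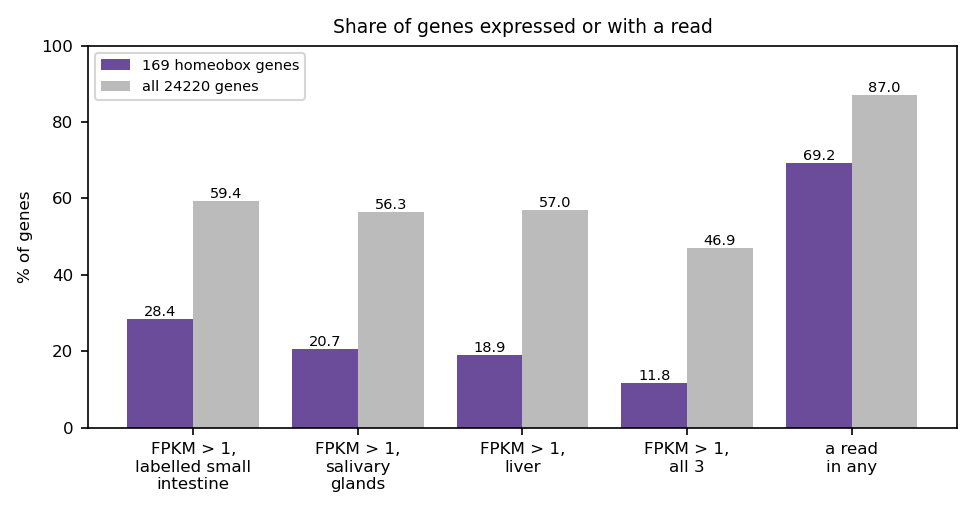
Percent of the 169 homeobox genes (purple) and of all 24220 genes (grey) with an FPKM above 1 in each library or in all 3, and percent with a read in any library. The purple bars stand at 28.4, 20.7, 18.9, 11.8 and 69.2%, each below its grey bar.

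Of the 169 genes, 60 were expressed in at least 1 library, which is 35.5% where 69.3% of all genes were. They divide into 20 genes expressed in all 3 libraries, 15 in a pair of them and 25 in 1 only. Of these 25 genes, 15 were expressed only in the intestine-labelled library, 7 only in the salivary library and 3 only in the liver library. The share of all genes expressed in only 1 library was not calculated, so these 3 counts are not read as particular to homeobox genes. Another 57 genes had reads but never passed an FPKM of 1, and 52 had no read at all. The 117 with a read were thus 69.2%, where 87.0% of all genes had a read. A count of 0 allows up to 3 reads, or a CPM (counts scaled to equal library sizes) of 0.295, 0.361 and 0.206 in the intestine-labelled, salivary and liver libraries. The genes without a read, with a median length of 974.5 bases, were shorter than the expressed ones, with a median of 3152. By class, 16 were NKL genes, 14 paired-type genes and 10 HOX genes.

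A gene was called higher in a library when it was expressed there and its count, scaled for library size and composition by TMM, was at least 4-fold above each of the other libraries. By that rule 14 homeobox genes were higher in the intestine-labelled library, 23.3% of the 60 expressed ones, where 6.22% of all 16790 expressed genes were. In the salivary library 6 of the 60 were higher, where the share of all genes was 3.33%. In the liver library 5 were higher, or 8.33% against 7.31%, a share near that of all genes. In all, 25 of the 60 stood out in 1 library, or 41.7% against 16.9%. The plot of folds gives 23 of them against its next highest library.

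**Figure D2:**
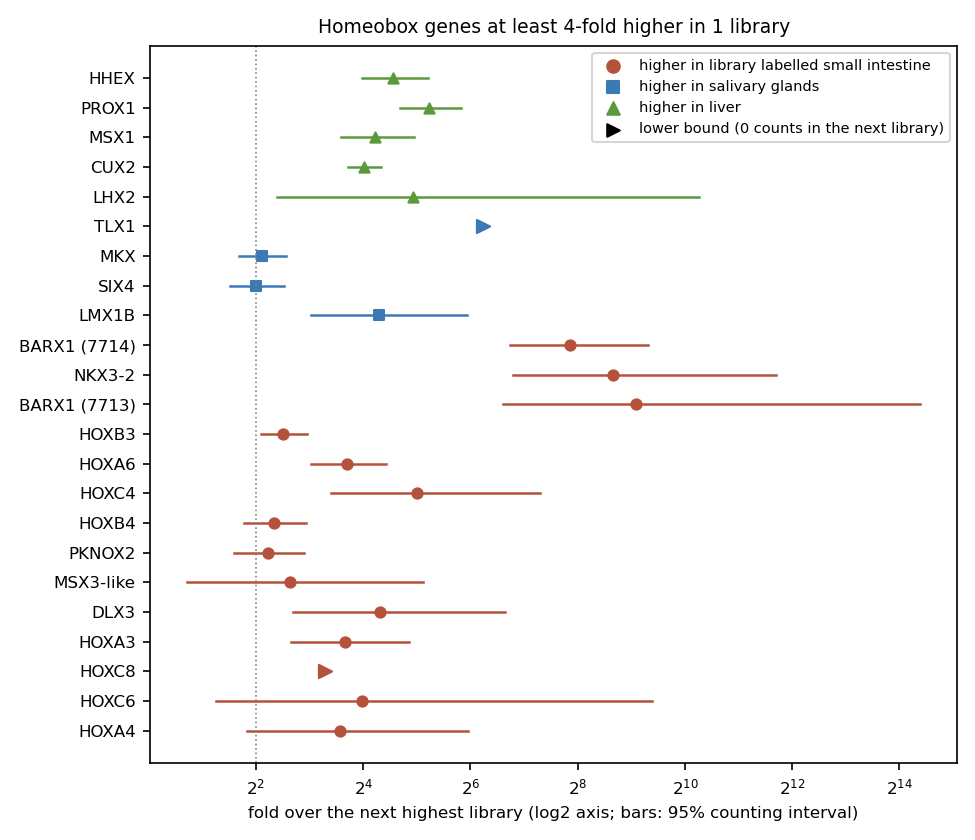
Fold of 23 of the 25 homeobox genes called higher in 1 library over the next highest library, on a log2 axis, with 95% counting intervals, the call threshold of 4-fold as a dotted line, and triangles pointing right for lower bounds. The BARX1 genes and NKX3-2 lie farthest to the right, with folds from 231 to 542, and the intervals of MKX, SIX4, PKNOX2, HOXB4, MSX3-like, HOXC6 and HOXA4 cross the dotted line.

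BARX1, the factor that directs the embryonic stomach, was the homeobox gene with the highest FPKM in the intestine-labelled library. It is held by a pair of new genes that the authors joined with Cufflinks, newGene_7714 and newGene_7713. The first had FPKM values of 63.5 in the intestine-labelled library, 0.246 in the salivary library and 0 in liver, from 1235, 6 and 0 reads. Its scaled count was 231-fold higher in the intestine-labelled library than in the salivary library (95% counting interval 106 to 632) and at least 697-fold higher than in the liver library. The second had FPKM values of 10.2, 1.35e-07 and 0, from 482, 1 and 0 reads, so that its FPKM in the salivary library gives the 1 read almost no weight. The pair lies on scaffold NW_016544200.1, at positions 110284 to 115513 for newGene_7713 on the plus strand and 112564 to 115487 for newGene_7714 on the minus strand, in the build the authors used. The shorter span, of 2924 bases, lies wholly inside the longer one. The reads were not counted by strand, so the reads of these overlapping genes cannot be told apart.

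NKX3-2, which acts in the mesenchyme of the stomach and in cartilage, followed the same course. Its FPKM values were 24.4 in the intestine-labelled library, 0.0292 in the salivary library and 0 in liver, from 715, 2 and 0 reads. Its scaled count was 402-fold higher in the intestine-labelled library than in the salivary library (interval 111 to 3325) and at least 403-fold higher than in the liver library. The first fold rests on 2 reads in the salivary library and was 834 by the ratio of deposited FPKM. SIX2, a gene of the embryonic pylorus and kidney, had FPKM values of 10.1, 8.16 and 0.174, from 138, 132 and 4 reads. It was 1.18-fold apart between the intestine-labelled and salivary libraries (interval 0.919 to 1.504), so its reads did not separate those libraries beyond counting error. PDX1 had FPKM values of 0.416, 0 and 0.290, from 3, 0 and 4 reads. NKX2-5 and NKX6-3, known from the pylorus and the antrum, had no read in any library.

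The factors of the intestine itself were near the limit of detection in the library named for it. Of 5 listed genes, with CDX1, CDX4, ISX and NKX2-3 among them, none passed an FPKM of 1 in any library. CDX1, a defining factor of the intestinal epithelium, had 0 reads in the intestine-labelled library, 0 in the salivary library and 5 in the liver library. CDX4 and ISX had no read in any library. NKX2-3, a factor of gut mesenchyme, had 0 reads in the intestine-labelled and salivary libraries and an FPKM of 0.0928 in the liver library. Of the 7 genes listed for the stomach, counting both BARX1 genes, 4 were expressed in the intestine-labelled library, 1 in the salivary library and 0 in liver. The first count is near the 59.4% of all genes expressed there, 2 of the 4 are the overlapping BARX1 pair, and SIX2 was expressed in the salivary library too. The plot of genes by region shows these values. In bulk tissue, fewer cells of a type and less RNA per cell cannot be told apart, here as in every comparison below.

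**Figure D3:**
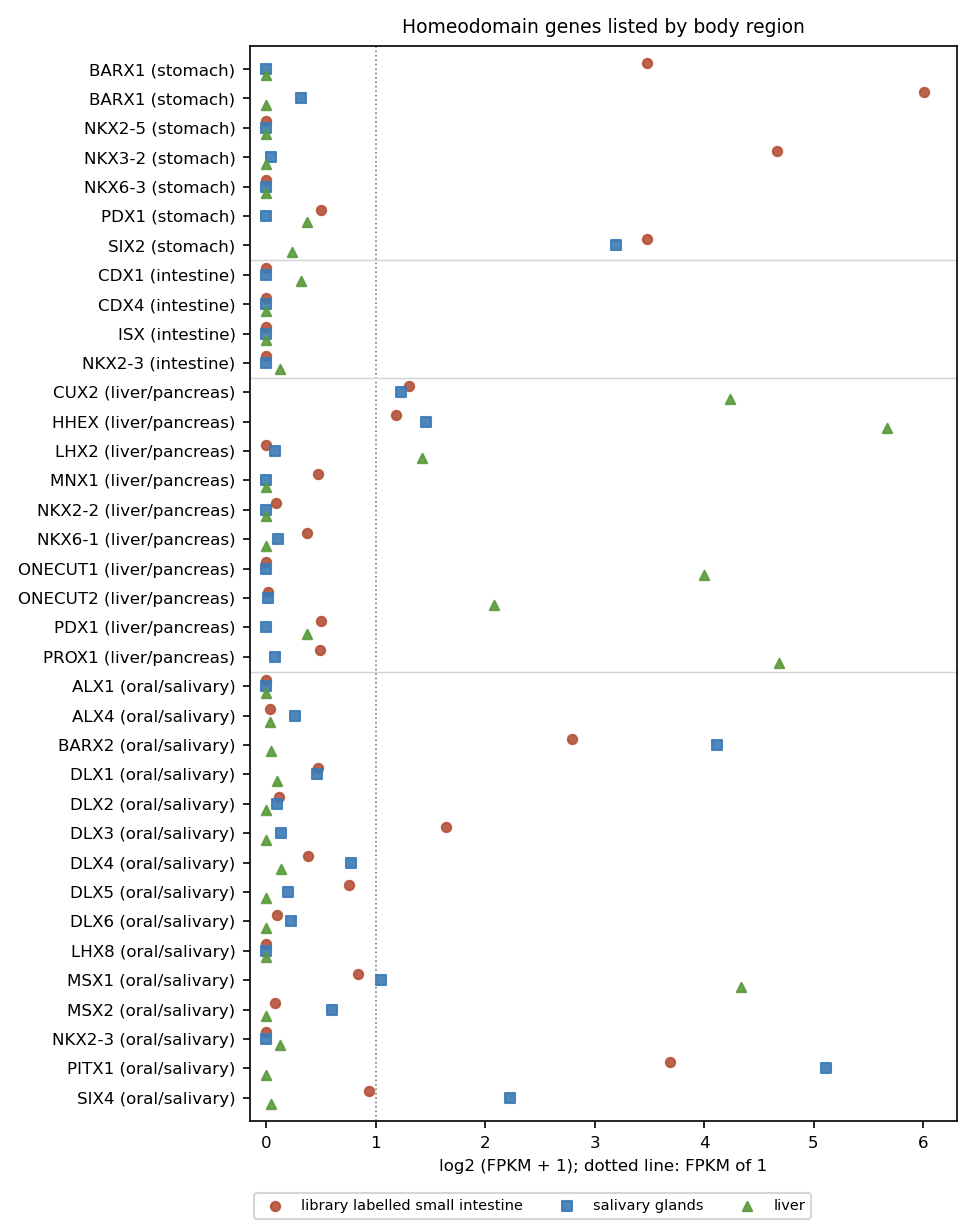
FPKM on a log2 (FPKM + 1) axis for homeodomain genes listed by region and reported here, with 1 point for each library (circle, library labelled small intestine; square, salivary glands; triangle, liver) and a dotted line at an FPKM of 1. Stomach genes BARX1 and NKX3-2 lie far right only as circles, all points of the 4 intestinal genes shown lie left of the line, and HHEX, PROX1 and ONECUT1 lie far right as triangles.

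The HOX genes set the levels of the trunk along the body axis, and they separated the libraries as a family. The 38 HOX genes with values lie in clusters of 10 HOXA, 10 HOXB, 9 HOXC and 9 HOXD genes, each on a single scaffold and over 95.5 to 160.1 kb. In the intestine-labelled library 11 of them were expressed, in the salivary library 0 and in the liver library 3, where 59.4, 56.3 and 57.0% of all genes were. Their reads summed to 898, 40 and 281 in the same order. Of the 14 homeobox genes called higher in the intestine-labelled library, 8 were HOX genes. These are 8 of the 11 expressed HOX genes, where 6.22% of all expressed genes were called. Of the 8, only HOXA6 has a span that overlaps no other homeobox gene, so the other calls are uncertain as to the gene.

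Within the clusters the expressed genes were those of the anterior and middle groups. In the intestine-labelled library they were HOXA3, HOXA4 and HOXA6, then HOXB2 to HOXB6, then HOXC4, HOXC6 and HOXC8. No HOXD gene passed an FPKM of 1 in any library, and the highest of them was HOXD9 with 0.600 in the intestine-labelled library. The 12 genes of groups 1 to 4 had 595 reads in the intestine-labelled library, 31 in the salivary library and 176 in the liver library. The 10 genes of groups 5 to 8 had 289, 5 and 97 reads. The 16 genes of groups 9 to 13, which mark the posterior body and the limbs, had 14, 4 and 8 reads, and none was expressed. The plot of the clusters shows that no value above 1 lies beyond group 8.

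**Figure D4:**
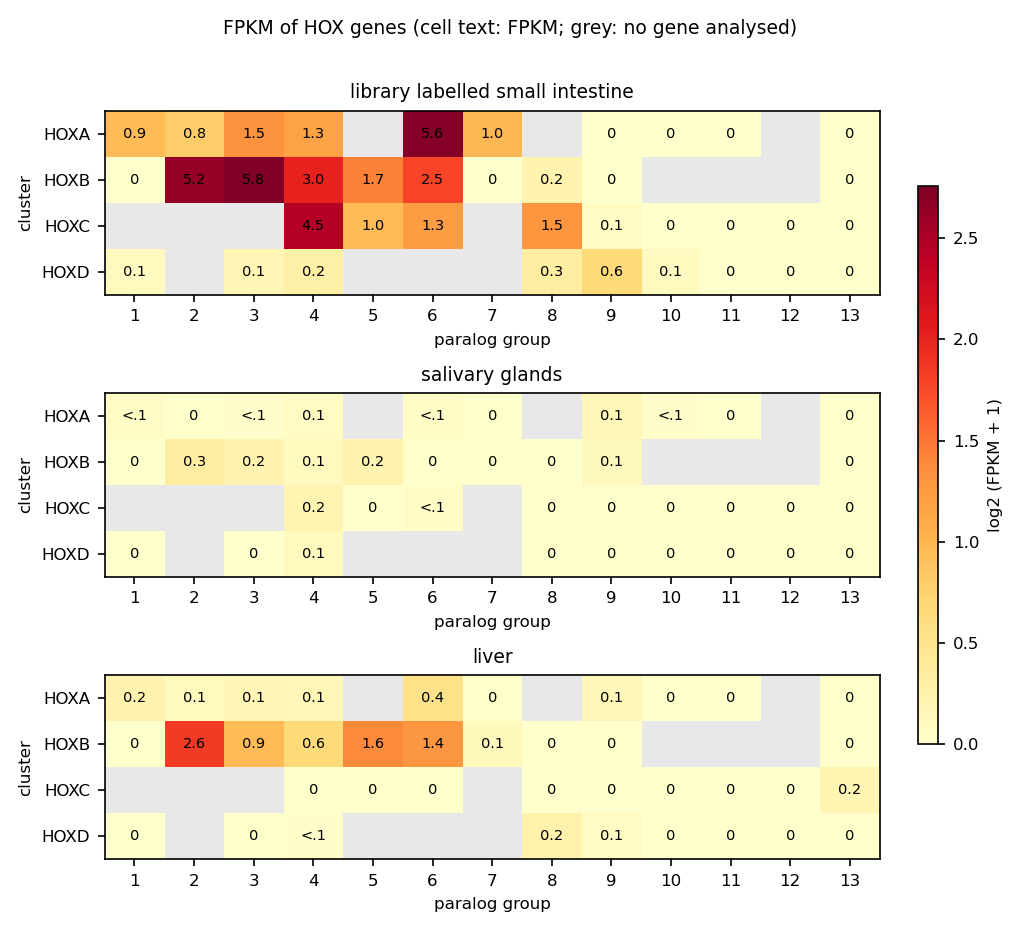
FPKM of the 38 HOX genes by cluster (rows) and paralog group (columns), 1 panel for each library, with colour on a log2 (FPKM + 1) scale and FPKM printed in each cell. Values above 1 lie in groups 2 to 6 and group 8 in the library labelled small intestine, are 3 in number in the liver (HOXB2, HOXB5 and HOXB6) and are missing from the salivary glands. HOXA7 and HOXC5, printed as 1.0, lie at 0.968 and 0.958.

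HOXB3 had the highest FPKM of the HOX genes, with 5.76 in the intestine-labelled library, 0.174 in the salivary library and 0.937 in the liver library, from 209, 11 and 62 reads. It was 5.71-fold higher in the intestine-labelled library than in the liver library (interval 4.28 to 7.70). HOXA6 had FPKM values of 5.59, 0.0323 and 0.433, from 160, 1 and 21 reads, and was 12.9-fold higher in the intestine-labelled library than in the liver library (8.16 to 21.4). Both genes thus stood highest in the intestine-labelled library, with the liver library second.

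HOXC genes differed from HOXA and HOXB genes in the liver library, where 8 of the 9 HOXC genes had no read. HOXD genes were nearly as low there, with 7 reads in total against 3 for HOXC, 44 for HOXA and 227 for HOXB. HOXC4 had FPKM values of 4.47 in the intestine-labelled library, 0.158 in the salivary library and 0 in liver, from 85, 3 and 0 reads. HOXC8 had 1.46, 0 and 0, from 26, 0 and 0 reads, and HOXC6 had 1.33, 0.0423 and 0, from 14, 1 and 0 reads. HOXC13 was the exception in the liver library, with 3 reads.

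The 3 HOXB genes HOXB2, HOXB5 and HOXB6 were expressed in both the intestine-labelled and liver libraries. HOXB2 had FPKM values of 5.18, 0.269 and 2.61, from 64, 4 and 58 reads. HOXB5 had 1.72, 0.162 and 1.63, from 27, 3 and 45 reads, and its fold between the intestine-labelled and liver libraries was 1.02 (interval 0.606 to 1.67). HOXB6 had 2.45, 0 and 1.44, from 25, 0 and 26 reads, with a fold of 1.63 (0.902 to 2.93). HOXB5 and HOXB6 thus did not differ between those libraries beyond counting error, and the salivary library was lowest for all 3 genes.

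The remaining expressed HOX genes were highest in the intestine-labelled library. HOXB4 had FPKM values of 3.02, 0.0737 and 0.586 in the intestine-labelled, salivary and liver libraries, from 105, 3 and 35 reads. HOXA3 had 1.49, 0.0205 and 0.130, from 67, 2 and 9 reads, and HOXA4 had 1.27, 0.0515 and 0.113, from 21, 1 and 3 reads. Several spans overlap. HOXA4 lies inside HOXA3, HOXB4 inside HOXB3, and HOXC5, HOXC6, HOXC8 and HOXC9 inside HOXC4, so their reads are uncertain as to the gene. Without these genes and the BARX1 pair, the count called higher in the intestine-labelled library was 5 in place of 14. HOXA6 is the only HOX gene among those 5.

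The MEIS genes, whose products bind DNA with HOX proteins, also stood highest in the intestine-labelled library. The TALE class (homeodomains with 3 extra residues) had 8 of its 9 genes expressed in that library, 7 in the salivary library and 6 in the liver library. Of all genes 59.4, 56.3 and 57.0% were, so the liver count is near its share. As 6 of the 9 were expressed in all 3 libraries, the class as a whole separated them little. The gene named Meis2 in the NR entry and MEIS1 in the KEGG entry (gene18027) had FPKM values of 28.1, 9.27 and 2.63, from 879, 329 and 116 reads. It was 12.8-fold higher in the intestine-labelled library than in the liver library (interval 10.6 to 15.7). MEIS2 (gene22215) had 21.0, 10.001 and 1.26, from 483, 285 and 48 reads, a 17.0-fold difference between the same libraries (12.6 to 23.4). Neither was 4-fold above the salivary library, so neither was called higher. MEIS3 had 2.97, 1.73 and 1.36, from 45, 33 and 40 reads. Its fold over the salivary library was 1.53 (0.957 to 2.48), so it did not differ between those libraries beyond counting error. PKNOX2, a relative of MEIS, had 2.54, 0.293 and 0.348, from 80, 14 and 29 reads. Its fold over the liver library was 4.67 (3.02 to 7.41), and 7.30 by the ratio of deposited FPKM.

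Smooth muscle genes also summed highest in the intestine-labelled library. For them the salivary library came second, whereas for the HOX reads the liver library did. Of the 6 listed, 5 had an FPKM above 1 in the intestine-labelled library, 5 in the salivary library and 2 in the liver library, and ACTG2 had no read in any. DES had 754, 9.86 and 0.205 and MYH11 had 638, 41.1 and 0.299, while ACTA2 was close in the first 2 libraries, with 130.1, 110.6 and 2.65. Among 10 homeobox genes listed for mesenchyme, 5 were expressed in the intestine-labelled library, 3 in the salivary library and 3 in the liver library. Of all genes 59.4, 56.3 and 57.0% were, so no count exceeded its share. None of the 10 was called higher in the intestine-labelled library. TLX2, a gene of enteric neurons, had 5, 0 and 1 reads. The part of muscle and connective tissue in the BARX1, NKX3-2, HOX and MEIS values was not tested.

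Some genes of the head and the oral cavity stood highest in the salivary library, but their list as a whole was expressed less often than genes at large. Of 19 homeobox genes listed for the oral and salivary region, 7 were expressed there, 5 in the intestine-labelled library and 2 in the liver library, where 56.3, 59.4 and 57.0% of all genes were. In the list 3 genes were called higher in the salivary library, 1 in the intestine-labelled library and 1 in the liver library. PITX1, which acts in the oral ectoderm, the jaw and the hind limb, had the highest FPKM of all homeobox genes in the salivary library. Its FPKM values were 11.9 in the intestine-labelled library, 33.7 in the salivary library and 0 in liver, from 333, 1037 and 0 reads. It was 2.77-fold higher in the salivary library than in the intestine-labelled library (interval 2.45 to 3.14) and at least 520-fold higher than in the liver library.

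Most other listed oral genes were low in every library. ALX1 and LHX8 had no read, and DLX1, DLX2, DLX4, DLX5, DLX6, MSX2 and ALX4 did not reach an FPKM of 1.

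SIX4, a factor of muscle and the pharyngeal arches, was called higher in the salivary library. Its FPKM values were 0.911, 3.67 and 0.0302, from 42, 190 and 2 reads, and its fold of 4.02 over the intestine-labelled library (2.87 to 5.76) lay at the threshold. ACTA1, the actin of skeletal muscle, had FPKM values of 0.870, 26.8 and 0, while MYH1 and MYH2 stayed at or under 0.105 in every library. CKM, a muscle kinase, and MB, myoglobin, were instead higher in the intestine-labelled library than in the salivary library, with 24.8 against 2.42 and 6.83 against 5.22. The 5 skeletal muscle genes summed to 32.5, 34.6 and 1.93. The part of skeletal muscle in the SIX4 values was not tested.

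TLX1, known from the spleen and cranial ganglia, had reads in the salivary library alone. Its FPKM values were 0, 9.90 and 0, from 0, 254 and 0 reads, at least 75.3-fold higher than in the intestine-labelled library. MKX, a factor of tendon, had 1.69, 7.08 and 0.613, from 54, 261 and 26 reads, with a fold of 4.30 over the intestine-labelled library (3.20 to 5.88). LMX1B, which patterns the dorsal limb, was held by a new gene with 0.131, 2.32 and 0.0539, from 5, 110 and 4 reads. The annotated LMX1B (gene2965), beside it on the other strand, had 1, 2 and 0 reads.

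A group of genes was expressed in the intestine-labelled and salivary libraries and not in the liver library. They were 6 in number, with BARX2, MKX, PITX1, PRRX2 and SIX2 among them, 3.55% of the homeobox genes, where 4.67% of all genes had the same pattern of expression, so the pattern was no more frequent among them. MKX still had 26 reads in the liver library. BARX2, a factor of oral and glandular epithelium and of muscle, had FPKM values of 5.93, 16.3 and 0.0274, from 114, 384 and 1 reads. It was 2.996-fold higher in the salivary library than in the intestine-labelled library (interval 2.42 to 3.73). PRRX2 had 1.27, 1.15 and 0, from 22, 26 and 0 reads, with a fold of 1.05 between the same libraries (0.573 to 1.95). PRRX2 thus did not differ between them beyond counting error.

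DLX3, a factor of epidermis, hair and teeth, was called higher in the intestine-labelled library, with FPKM values of 2.12, 0.0934 and 0 from 53, 3 and 0 reads. The keratin KRT5, which marks the basal cells of squamous and glandular epithelia, had 88.2 in the intestine-labelled library, 55.01 in the salivary library and 0 in liver. KRT5 was thus at 0 in the liver library, where BARX2 and PITX1 were at or near 0, but between the other two libraries it was higher in the intestine-labelled one, where they were lower. The part of such epithelium in their values was not tested. A further gene called higher in the intestine-labelled library, the short MSX3-like gene7397, rested on 11, 0 and 3 reads.

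HHEX, PROX1 and CUX2, listed for the liver, the bile ducts and the pancreas, were called higher in the liver library. HHEX, needed for the budding of the liver, had FPKM values of 1.27 in the intestine-labelled library, 1.74 in the salivary library and 49.9 in the liver library, from 15, 24 and 850 reads. It was 23.5-fold higher in the liver library than in the salivary library (interval 15.7 to 36.9). PROX1, a factor of hepatocytes and of lymphatic endothelium, had 0.404, 0.0541 and 24.8, from 28, 4 and 1776 reads, and was 37.5-fold higher than in the intestine-labelled library (25.8 to 56.6), or 61.3-fold by the ratio of FPKM. CUX2, a cut homeodomain factor of the liver, had 1.47, 1.34 and 17.8, from 80, 93 and 2259 reads, and was 16.1-fold higher than in the salivary library (13.1 to 20.1). For each of these genes the other two libraries lay far below the liver.

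MSX1, best known from teeth and the face, was also called higher in the liver library and not in the salivary library. Its FPKM values were 0.788, 1.06 and 19.2, from 12, 20 and 562 reads, an 18.7-fold difference between the liver and salivary gland libraries (interval 12.0 to 30.8). LHX2, a factor of hepatic stellate cells, had 0, 0.0578 and 1.67, from 0, 1 and 46 reads. HLX, which acts in the mesenchyme of gut and liver, had 1.96, 0.624 and 6.54, from 36, 15 and 242 reads. Its fold of 3.97 over the intestine-labelled library (2.79 to 5.80) fell just short of the call. Of the 12 genes listed for the liver, the bile ducts and the pancreas, 8 were expressed in the liver library. In the intestine-labelled library 4 were, and in the salivary library 2. Of all genes 57.0, 59.4 and 56.3% were expressed in the liver, intestine-labelled and salivary libraries, so the liver count is near its share. Of the 8 genes, 7 were called higher in the liver library, where 7.31% of all expressed genes were. The list was chosen with earlier results of these data known. The pancreatic factors of that list had few reads. MNX1 had 1 read and NKX2-2 had 1 read, both in the intestine-labelled library, and NKX6-1 had 6, 2 and 0 reads.

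Homeodomain and paired box genes whose NR entry lacks the word homeobox added to the regional picture. There were 44 such genes, with the ONECUT, POU, PAX, ISL, IRX and TSHZ families among them. Of the 44, 14 were expressed in the intestine-labelled library, 17 in the salivary library and 14 in the liver library. Of all genes 59.4, 56.3 and 57.0% were, so these genes too were expressed less often than genes at large. Among the 25 expressed in any library, 2 were called higher in the intestine-labelled library, 8 in the salivary library and 4 in the liver library. The 8 include both genes named PAX9. Of all expressed genes, 6.22, 3.33 and 7.31% were called higher in the same libraries. The plot of these genes shows the iroquois genes as the salivary set and ONECUT1, ONECUT2 and PAX8 as part of the liver set.

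**Figure D5:**
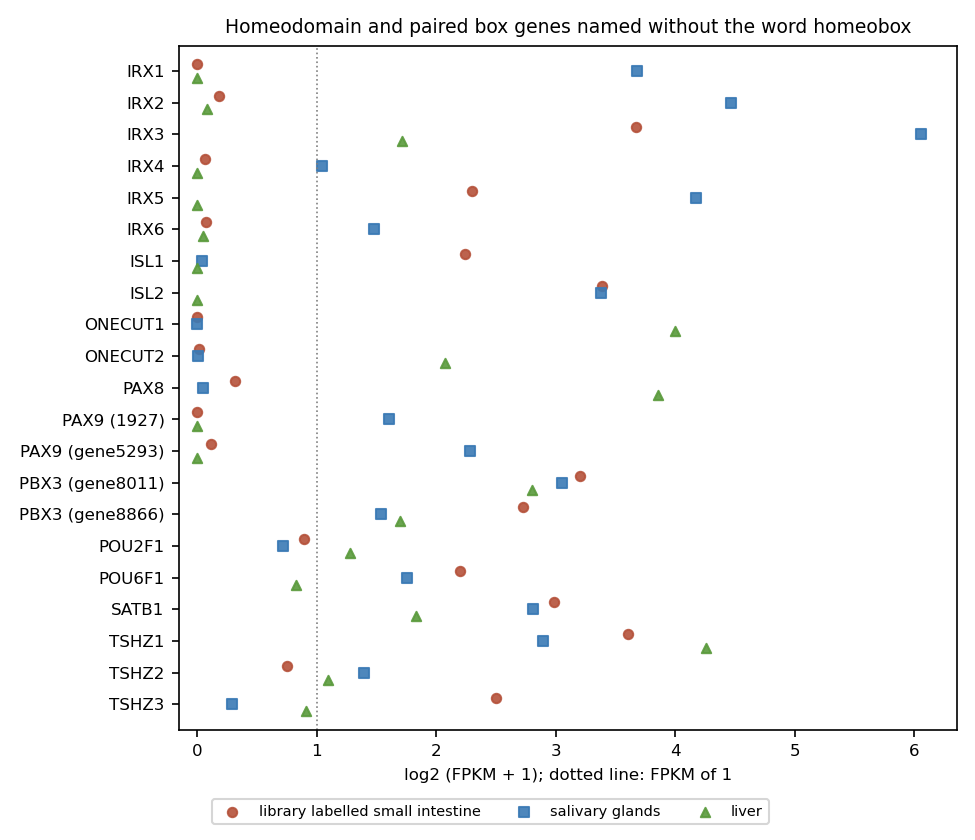
FPKM on a log2 (FPKM + 1) axis for 21 of the 25 homeodomain and paired box genes without the word homeobox that were expressed in at least 1 library, with 1 point for each library (circle, library labelled small intestine; square, salivary glands; triangle, liver). The squares of IRX1 to IRX6 lie to the right of the other points, as do the triangles of ONECUT1, ONECUT2 and PAX8.

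ONECUT1, a factor of hepatocytes and bile ducts, had FPKM values of 0, 0 and 14.99 in the intestine-labelled, salivary and liver libraries, and its 1409 reads made it at least 277-fold higher in the liver library than in the intestine-labelled library. In liver ONECUT2 stood at 3.22 and PAX8, known from thyroid and kidney, at 13.5. TSHZ1, a teashirt factor, was broad, with 11.2, 6.41 and 18.1. All 6 iroquois genes were called higher in the salivary library. IRX3 led them with 11.7, 65.5 and 2.28, from 217, 1413 and 80 reads, and was 5.79-fold higher than in the intestine-labelled library (5.02 to 6.71). IRX2 had an FPKM of 21.1 in the salivary library and 0.136 in the intestine-labelled library. PAX9, a factor of teeth and the tongue, was held by a pair of genes with 3.87 and 2.04 in the salivary library.

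In the intestine-labelled library ISL1, a factor of the pyloric mesenchyme and of neurons, had an FPKM of 3.74 from 109 reads, against 2 and 0 reads in the salivary and liver libraries. TSHZ3, a factor of smooth muscle, had 4.65 there and was 5.28-fold higher than in the liver library (interval 3.99 to 7.06). ISL2 was common to the intestine-labelled and salivary libraries, with 9.47 and 9.42, and had no read in the liver library.

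The homeobox genes expressed in all 3 libraries were mostly of other kinds. They were 20 in number, 11.8% where 46.9% of all genes were, and 7 of them were zinc finger homeodomain genes such as ADNP and ZHX1 to ZHX3. No HOX gene was among them. Their highest scaled count exceeded the lowest by a median of 2.49-fold, where all 11359 genes expressed in the 3 libraries had a median of 1.94-fold. TGIF2, a repressor in TGF-beta signalling, was the steadiest at 1.35-fold, with FPKM values of 7.50, 5.30 and 8.35. ADNP, a chromatin factor, had 12.2, 7.63 and 12.7, and its range was 1.52-fold. SIX5 was high in each library, with 12.6, 27.4 and 15.3.

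Some genes expressed in more than 1 library still differed between them. TGIF1 had FPKM values of 9.78, 3.43 and 20.9, and was 4.92-fold higher in the liver library than in the salivary library (interval 4.02 to 6.06). ZEB1, a repressor of epithelial genes that is active in mesenchyme, had 8.67, 0.746 and 8.69, from 470, 48 and 587 reads. It was 11.0-fold higher in the intestine-labelled library than in the salivary library (8.17 to 15.1). HLX, HOXB2, HOXB5, HOXB6, ZEB1, ZEB2 and ZFHX2 were expressed in the intestine-labelled and liver libraries and not in the salivary library. These 7 genes were 4.14% of the homeobox genes, and 3.06% of all genes had that pattern.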

How the data were processed

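RNA of 3 tissues of 1 adult female was sequenced as 1 library each. Per the paper's methods, the authors aligned paired reads with TopHat2, at most 2 mismatches and no strand, to the M. javanica genome, whose build is not given in the sources used here, and joined reads outside annotated genes with Cufflinks. The deposited count is a whole number of fragments per gene, not scaled. The deposited FPKM was made by the authors from fragments, transcript length and mapped fragments. A further deposited score, the fragments times 1 factor per library, was read as a check. The count exceeded the fragments it implies by over 0.01 in 18, 25 and 18 homeobox genes of the intestine-labelled, salivary and liver libraries, by at most 1.0 read, so a count of 1 may stand for less. The authors annotated genes by BLASTX.

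Members were named by the NR product, which was the KEGG symbol in 119 of the 121 that had one. Homeodomain and paired box genes without the word homeobox were found by the NR product too. The plan named Swiss-Prot or KEGG symbols, but Swiss-Prot symbols often pointed to a paralog. Members and lists were chosen with earlier results of these data known. Named are listed regional genes, the 5 highest members of each library, up to 10 members called higher in a library and expressed HOX genes. Of the other homeodomain and paired box genes, those listed and the 2 highest in each library are named. Some genes that these rules name are not reported here, though counts include them. Other named genes were chosen after their values were seen.

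Counts were scaled by TMM (edgeR 4.0.16, R 4.3.3). Folds are ratios of scaled counts with exact Clopper-Pearson 95% intervals. A count of 0 was set to 3, giving a lower bound, and the rule for calls sets counts under 3 to 3. Software was scipy 1.17.1, statsmodels 0.14.6, numpy 2.4.6, pandas 2.3.3 and matplotlib 3.10.9 under Python 3.11.15. The scripts were tested on simulated data. Alternatives were other FPKM and fold thresholds, at least 10 reads, TPM, other scalings, members by the Swiss-Prot entry as well, and leaving out new genes. No sequence of a member was used here.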

Additional observations from a re-analysis of the deposited data

How the results depend on the processing

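Of 51 recalculated counts of homeobox genes, 40 stayed within 1.5 times the value reported. With an FPKM above 5 the genes expressed were 22 in the intestine-labelled library, 14 in the salivary library and 15 in the liver library. The genes higher in the intestine-labelled library numbered 8 at 8-fold, 5 with an FPKM above 5, and 5 without members that overlap another member, a choice made after the data were seen. With library size only they were 11, since HOXC6, MSX3-like and PKNOX2 were lost. The genes higher in the salivary library numbered 12 at 2-fold, 12 with members by the NR or the Swiss-Prot entry, and 16 against the liver library alone, which is 35.6% of the genes tested against 11.8% of all genes. The genes higher in the liver library numbered 9 at 2-fold and 13 against the salivary library alone, 28.9% against 11.7%. Both counts without the intestine-labelled library were added after the data were seen. The fewer or more genes follow from the stricter or looser rule, the scaling, the members added or left out, or the library left out. The Swiss-Prot entry added 20 members, so the count called higher in the salivary library depends on how members are defined. Of 70 recalculated folds none changed direction and 2 moved beyond their counting interval, PROX1 to 61.3 by the ratio of FPKM and MKX to 5.90 with library size only.

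With library size only, the median log2 ratio over 11359 genes was -0.53 for the intestine-labelled over the salivary library and -0.36 over the liver library, against -0.07 and -0.12 with TMM, so each fold of the intestine-labelled library over those libraries was 0.728 and 0.847 times that given. No paired analysis was possible because each tissue has 1 library, and for the same reason no library of a tissue could be left out in turn. Depth limits the genes with few reads, since 29 members had reads but under 4 in every library.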
